A study of Mus musculus with 4 samples.

Results

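RBP-J, encoded by Rbpj, is the DNA-binding protein at the end of the Notch pathway. The genes described here are Rbpj itself, 6 genes for proteins that bind RBP-J or work in its repressor complexes (L3mbtl3, Kdm5a, Spen, Ncor1, Snw1 and Hdac1), and Hes1 and Bend6, which were at higher levels when Rbpj was deleted. They were taken by symbol and make up 9 of the 22026 genes listed. The set was chosen by name with the measured RBP-J KO and WT levels of these libraries already known, and Hes1 and Bend6 were selected on their higher FPKM in RBP-J KO. The members' differences are therefore given as a description, with no test.

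The libraries came from bone marrow derived macrophages of C57BL/6 mice aged 8 weeks. RBP-J KO cells had the genotype Rbpj f/f;LysM cre (2 libraries), in which Cre recombinase is driven by the lysozyme M (Lyz2) locus of myeloid cells. WT cells came from wildtype control animals (2 libraries). The labels do not say whether the controls carried the floxed allele or the Cre. All marrow was grown for 3 days in CMG14-12 supernatant, a source of the macrophage growth factor M-CSF. Values are FPKM, the Cufflinks measure that divides fragments by transcript length and by the fragments mapped, and between 12142 and 12707 genes were above 0 in a library. No label says whether the 2 libraries of a genotype came from separate mice, so any p-value covers the spread between libraries alone, part of which may be technical.

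Without a Notch signal RBP-J sits on DNA with corepressors that remove activating histone marks and keep its targets silent. When a Notch receptor is cleaved, its intracellular part enters the nucleus, displaces these partners and recruits the Mastermind coactivators, so that the same site switches to activation. Loss of RBP-J therefore removes both the repressor and the platform of the activator. Hes1 is the classical target of this switch, and BEND6 is known from mouse neural stem cells as a nuclear antagonist of Notch that binds RBP-J.

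The libraries differed by replicate number as well as by genotype. The tables of replicate 1 have a row per gene and those of replicate 2 a row per transcript, which was summed here. Kdm5d, the Y-linked relative of Kdm5a, was at 43.7 and 41.2 FPKM in RBP-J KO and WT replicate 1 and was listed at 0 in both replicate 2 libraries. Members are therefore compared inside each replicate number. The 7 macrophage markers with an entry under their listed symbol (of 9 symbols) were all above 200 FPKM in every library, and their summed level was 19694 and 12809 FPKM in RBP-J KO, against 16143 and 14730 FPKM in WT. The 9 neutrophil markers with an entry (of 10) summed to 8353 and 993 FPKM in RBP-J KO, against 6968 and 281 FPKM in WT, with 7 of them higher in RBP-J KO inside both replicate numbers and none at 0. Dendritic cell markers (4 genes) summed to 39.4 and 2.8 FPKM in RBP-J KO and 4.6 and 1.1 FPKM in WT, with Zbtb46 above 0 in RBP-J KO replicate 1 alone. The 6 T and B cell markers summed to 17.9 and 0 FPKM in RBP-J KO and 8.6 and 0 FPKM in WT, and Cd3d was listed at 0 throughout. Stromal and endothelial markers (6 genes) summed to 25.4 and 3.9 FPKM in RBP-J KO and 16.9 and 2.3 FPKM in WT. The 5 erythroid and megakaryocyte markers summed to 2520.2 and 4301 FPKM in RBP-J KO and 3066 and 3015 FPKM in WT. Nearly all of it was Pf4, so the sum gives the level of that gene and not of the list. Itga2b was at 36.1 and 3.69 FPKM in RBP-J KO and 32.2 and 0 FPKM in WT. In bulk RNA, fewer cells of a type and less RNA per cell cannot be told apart.

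Rbpj RNA was present in RBP-J KO cells at a small part of its WT level. It stood at 51.5 and 77 FPKM in RBP-J KO replicates 1 and 2, against 355 and 573 FPKM in WT replicates 1 and 2. Both RBP-J KO libraries lay far below both WT libraries. What was left came to 14.5% of the WT level in replicate 1 and 13.4% in replicate 2, so that the remaining share was close to equal although the level in WT differed 1.62-fold between the replicates. Ranked among the 11851 genes whose mean reached 1 FPKM, Rbpj was above 89.1% and 94.4% of genes in WT replicates 1 and 2 but above 44.5% and 57.4% in RBP-J KO replicates 1 and 2. Whether the remaining RNA includes the deleted exons cannot be read from these values. The annotation also lists the pseudogenes Rbpj-ps1 and Rbpj-ps3, and how reads shared with such copies were assigned is not given in the sources used here.

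**Figure D1:**
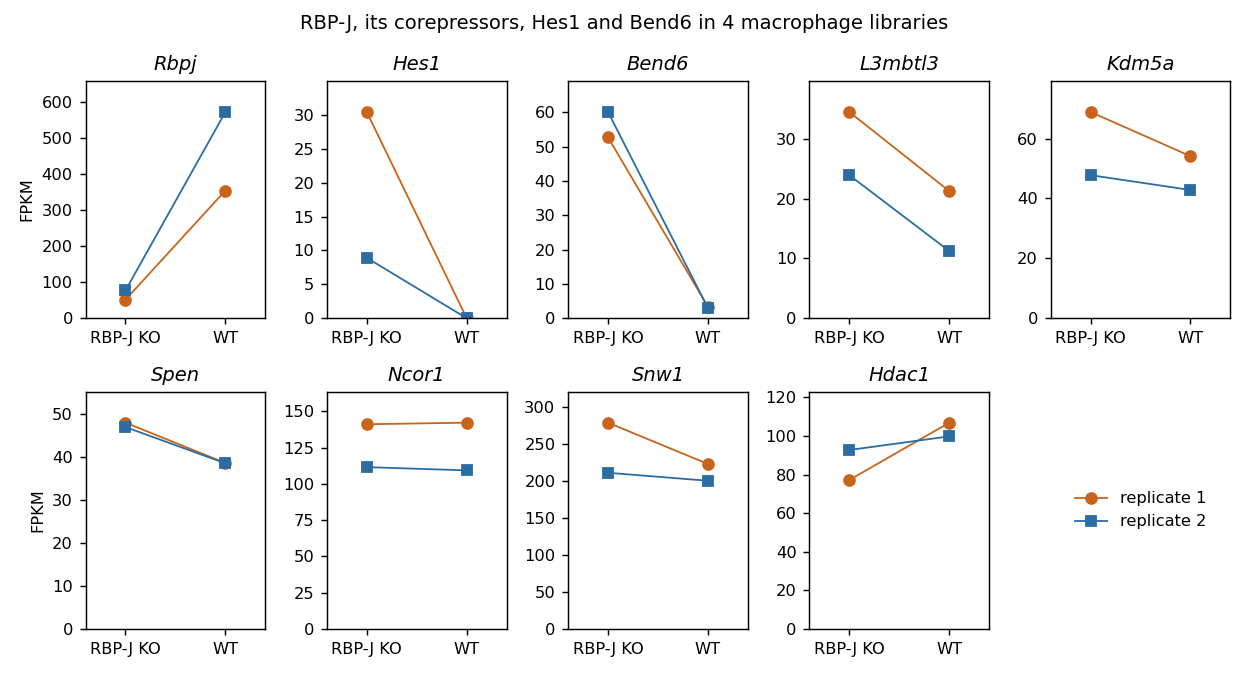
FPKM (vertical axes, starting at 0, a scale of its own for each gene) of the 9 genes in RBP-J KO and WT libraries. Circles are replicate 1 and squares replicate 2, and lines join libraries of equal number. Rbpj is low in both RBP-J KO libraries (51.5 and 77 FPKM, against 355 and 573 FPKM in WT), whereas Bend6 and Hes1 are high there and near or at 0 in WT.

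The replicate 2 tables resolve Rbpj into 3 RefSeq transcripts. By the GENCODE M21 annotation, NM_009035 begins 257 bases and NM_001080928 34637 bases upstream of NM_001080927, and all 3 share the downstream 95.0% or more of their sequence. Their coding regions span 487 codons (NM_001080927), 526 codons (NM_009035) and 485 codons (NM_001080928), without the stop. NM_001080927 was at 58.9 FPKM in RBP-J KO and 473 FPKM in WT, which is 12.5% of the WT level. NM_009035 was at 16.3 FPKM in RBP-J KO and 99.2 FPKM in WT, or 16.4%. Both abundant transcripts were thus low in RBP-J KO. The transcript from the distant upstream start, NM_001080928, did not share this pattern, with 1.82 FPKM in RBP-J KO and 0.97 FPKM in WT. It made up 2.4% of all Rbpj RNA in RBP-J KO and 0.2% in WT. These are single libraries, so the split between transcripts has no replicate check, and the 3 transcripts can be told apart only by the short stretches at their 5′ ends (69 bases in NM_001080928 and 271 bases in NM_009035 that are not shared with NM_001080927).

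**Figure D2:**
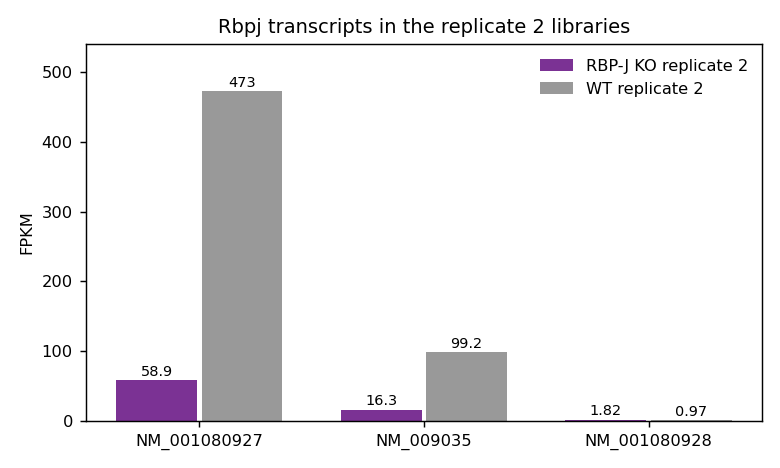
FPKM (vertical axis, from 0) of the 3 Rbpj transcripts in RBP-J KO replicate 2 (left bar of each pair) and WT replicate 2 (right bar), 1 library per bar. NM_001080927 and NM_009035 are low in RBP-J KO (58.9 and 16.3 FPKM, against 473 and 99.2 FPKM in WT), and NM_001080928 is close to 0 in both libraries.

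The promoter of Bend6 is shown because its RNA was high in both RBP-J KO libraries and low in both WT libraries. That of Rbpj is shown because the gene was deleted, and that of Spen because it holds the RBP-J recognition word GTGGGAA. Each sequence is the 250 bases before a RefSeq transcript start (build GRCm38.p6, the build of the RefSeq table; the deposited values were made on mm9), read on the strand of the gene. Capitals mark GTGGGAA or its core TGGGAA, searched on both strands; every GTGGGAA contains a TGGGAA, and on the opposite strand the core reads TTCCCA. Windows were found for 5 of the 9 genes (Rbpj, Bend6, L3mbtl3, Spen and Ncor1), and not for Hes1, Kdm5a, Snw1 and Hdac1.
Bend6, chr1:33907768-33908017, minus strand: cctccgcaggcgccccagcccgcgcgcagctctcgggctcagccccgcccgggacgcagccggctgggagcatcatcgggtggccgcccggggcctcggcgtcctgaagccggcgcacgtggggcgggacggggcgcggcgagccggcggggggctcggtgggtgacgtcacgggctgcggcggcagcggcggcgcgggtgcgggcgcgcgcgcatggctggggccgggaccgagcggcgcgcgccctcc
Rbpj, chr5:53590096-53590345, plus strand: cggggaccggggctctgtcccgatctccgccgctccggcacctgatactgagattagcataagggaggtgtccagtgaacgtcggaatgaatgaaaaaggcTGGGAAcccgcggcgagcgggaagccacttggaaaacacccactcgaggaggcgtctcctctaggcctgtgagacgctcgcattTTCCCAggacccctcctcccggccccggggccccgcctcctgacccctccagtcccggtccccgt
Spen, chr4:141538598-141538847, minus strand: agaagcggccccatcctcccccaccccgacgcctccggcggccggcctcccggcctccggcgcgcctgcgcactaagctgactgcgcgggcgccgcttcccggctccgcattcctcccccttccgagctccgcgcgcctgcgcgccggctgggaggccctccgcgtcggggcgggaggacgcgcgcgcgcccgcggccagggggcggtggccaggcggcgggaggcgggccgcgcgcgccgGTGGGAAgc

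Neither of the 2 overlapping Bend6 windows held either word, and neither did the L3mbtl3 windows. The Rbpj window printed held the core on both strands, with its first letters 149 and 65 bases before the start. The other, overlapping Rbpj window held the core once, 205 bases before its own start. It is the same copy as the one 65 bases before the start in the printed window. Spen held GTGGGAA next to its start. One Ncor1 window also held the core. Of all 32851 such windows in the table, 5.42% held GTGGGAA and 21.6% held TGGGAA. A match is a run of letters and not a measured binding site, and its absence from a window of this size says nothing about binding elsewhere.

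Hes1 encodes a basic helix-loop-helix repressor that silences its own gene and many others through Groucho corepressors. It was at 30.4 and 8.91 FPKM in RBP-J KO replicates 1 and 2 and was listed at 0 in both WT libraries. The RBP-J KO libraries differed 3.42-fold between themselves. With WT listed at 0, any RBP-J KO level above 0 lies above WT, whatever this spread. Since WT was listed at 0 and the files hold no counts, no fold is given. All 17 genes used in every cell that were looked at, such as Actb and Tbp, were above 0 in all 4 libraries. Their levels do not show whether a 0 listed for another gene, such as Hes1, means absent RNA. WT replicate 2 listed 2 genes at 0 that reached at least 20 FPKM in every other library. RBP-J KO replicate 2 listed 1 such gene, and both replicate 1 libraries listed 0. Hes1 passed the minimum mean through RBP-J KO alone. On the log2(FPKM + 1) scale its difference ranked 5 from the top among the 11851 genes in replicate 1 and 15 in replicate 2; these ranks rest on the pseudocount, and with 0.1 FPKM they were 2 and 7. Neutrophil and dendritic cell markers were also higher in RBP-J KO replicate 1 than in RBP-J KO replicate 2 (8353 against 993 FPKM and 39.4 against 2.8 FPKM, summed). In WT replicates 1 and 2, where Hes1 was listed at 0, the neutrophil markers summed to 6968 and 281 FPKM. The dendritic cell markers summed to 4.6 and 1.1 FPKM there. The part of these cells in the level of Hes1 was not tested.

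Bend6 encodes a BEN domain protein that binds RBP-J and holds down Notch targets. It was at 52.7 and 60.1 FPKM in RBP-J KO replicates 1 and 2, against 3.33 and 2.98 FPKM in WT replicates 1 and 2. The genotypes were widely separated and the libraries within each genotype differed by less than 1.5-fold. The ratio of RBP-J KO to WT was 15.8 in replicate 1 and 20.2 in replicate 2. On the log2(FPKM + 1) scale the difference was 3.79 (SE 0.25, n = 2 each). It ranked 25 from the top in replicate 1 and 10 in replicate 2 (52 and 53 with a pseudocount of 0.1 FPKM). Every SE of a log2 difference, here and below, comes from the limma fit. That fit draws the variance of each gene towards a trend over all genes tested. The SE is therefore not the spread of the 4 libraries alone. In WT, Bend6 lay above 8.2% and 8.4% of the 11851 genes, and in RBP-J KO above 45.3% and 50.2%. Beside these ratios, the summed neutrophil markers were 1.20-fold higher in RBP-J KO in replicate 1 and 3.54-fold higher in replicate 2. Single neutrophil markers had ratios of RBP-J KO to WT from 0.973 (Ngp) to 2.38 (Prtn3) in replicate 1. In replicate 2 they ranged from 2.53 (Ctsg) to 5.01 (Prtn3). The summed dendritic cell markers were 8.57-fold higher in replicate 1 (39.4 against 4.6 FPKM) and 2.55-fold higher in replicate 2 (2.8 against 1.1 FPKM). The replicate 2 ratio thus rests on low levels. Only Siglech among these markers was above 0 in both replicate 2 libraries, with a ratio of 1.20. The part of these cells in the level of Bend6 was not tested.

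L3MBTL3 is a methyl-lysine reader that binds RBP-J and recruits the histone demethylase KDM1A to its targets. L3mbtl3 was at 34.5 and 23.9 FPKM in RBP-J KO replicates 1 and 2, against 21.3 and 11.2 FPKM in WT replicates 1 and 2. Both RBP-J KO libraries were above both WT libraries, although RBP-J KO replicate 2 exceeded WT replicate 1 by a small margin. The ratio was 1.62 in replicate 1 and 2.13 in replicate 2. The log2(FPKM + 1) difference over all libraries was 0.85 (limma SE 0.40, n = 2 each), the largest among the 6 corepressor genes. It was 0.42 without WT replicate 2 and 1.28 without WT replicate 1, values that also carry the difference between the replicates.

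The scaffold proteins of the complex differed less. Spen encodes SHARP (also called MINT), the large adaptor that binds RBP-J directly and brings in NCoR and histone deacetylases. It was at 48.1 and 47.1 FPKM in RBP-J KO replicates 1 and 2, against 38.7 and 38.6 FPKM in WT replicates 1 and 2. The libraries of each genotype lay almost on top of each other, and the genotypes did not overlap. The ratio was 1.24 in replicate 1 and 1.22 in replicate 2, which is a small difference: in replicate 1, 54.3% of the 11851 genes had a smaller difference in either direction on the log2(FPKM + 1) scale, and in replicate 2, 62.9% had one. Ncor1, the corepressor that carries histone deacetylase 3, was at 141 and 112 FPKM in RBP-J KO replicates 1 and 2, against 142 and 109 FPKM in WT replicates 1 and 2. Inside both replicate numbers the Ncor1 level was nearly the same in the 2 genotypes (ratios of 0.992 and 1.02), and the replicates stood further apart than the genotypes.

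The enzymes and the remaining partner differed by at most 1.38-fold inside either replicate number. Kdm5a encodes a demethylase of the activating mark H3K4 trimethylation that binds RBP-J. It was at 68.9 and 47.8 FPKM in RBP-J KO replicates 1 and 2, against 54.1 and 42.8 FPKM in WT replicates 1 and 2. The genotypes overlapped, with RBP-J KO replicate 2 below WT replicate 1. Its log2(FPKM + 1) difference was 0.34 inside replicate 1 and 0.15 inside replicate 2. Without RBP-J KO replicate 1 the difference changed sign (-0.01, against 0.25 over all libraries). That fit sets RBP-J KO replicate 2 against both WT libraries, so it also carries the difference between the replicates. Snw1 encodes SKIP, a splicing factor that contacts RBP-J in both its repressor and its activator complexes. It was at 279 and 211 FPKM in RBP-J KO replicates 1 and 2, against 223 and 201 FPKM in WT replicates 1 and 2. These groups overlapped as well. The Snw1 difference was 0.32 inside replicate 1 and 0.075 inside replicate 2. Without RBP-J KO replicate 1 it was -0.0016, against 0.20 over all libraries, again with the difference between the replicates in it. Hdac1, a histone deacetylase shared by many repressor complexes, was the only corepressor gene lower in RBP-J KO in both replicate numbers, at 77.2 and 92.8 FPKM in RBP-J KO replicates 1 and 2, against 107 and 99.8 FPKM in WT replicates 1 and 2. The groups did not overlap, but the ratios were 0.722 and 0.929, and RBP-J KO replicate 2 was close to WT replicate 2.

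Counted together, 3 of the 9 genes (Hes1, Bend6 and L3mbtl3) were at least 1.5-fold higher in RBP-J KO inside both replicate numbers on the log2(FPKM + 1) scale, as were 3.86% of all genes tested. Rbpj was the 1 gene at least 1.5-fold lower, as were 3.63% of all genes tested. Both RBP-J KO libraries were above both WT libraries for 4 genes (Hes1, Bend6, L3mbtl3 and Spen), as for 11.7% of all genes tested. They were below both for 2 genes (Rbpj and Hdac1), as for 18.2% of all genes tested. Among the 6 corepressor genes, 4 were higher and 1 lower inside both replicate numbers, as were 25.1% and 34.1% of all genes tested. Their median log2 differences were 0.31 in replicate 1 and 0.11 in replicate 2, beside -0.05 and -0.02 over all genes tested. Since the members were chosen with this contrast known, nothing is read from these shares.

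**Figure D3:**
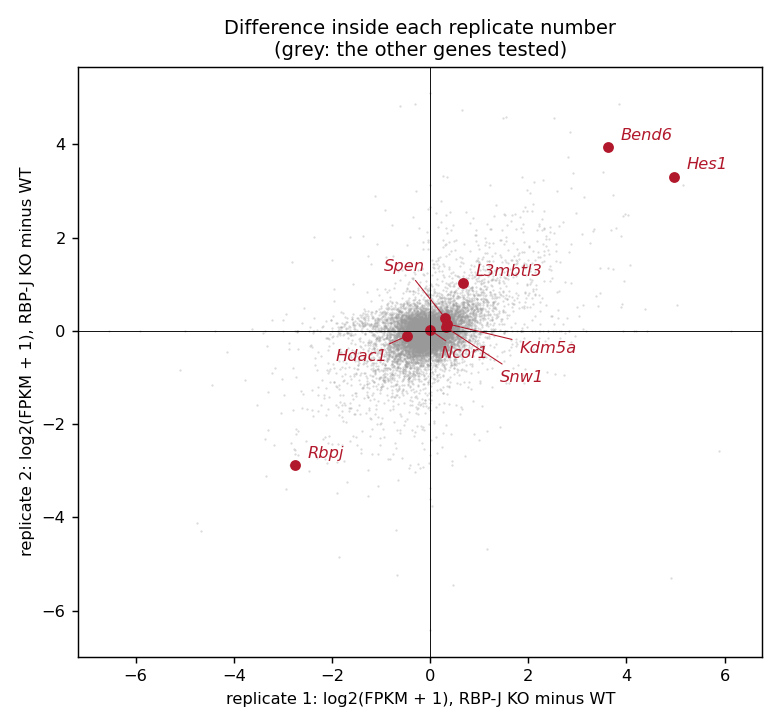
Each point is a gene, with its RBP-J KO minus WT difference in log2(FPKM + 1) in replicate 1 (horizontal) and replicate 2 (vertical); red points are the 9 genes and grey points the rest of the 11851 tested. Hes1 and Bend6 lie at the upper right edge and Rbpj at the lower left, with L3mbtl3 above the centre and the other 5 corepressor genes within the central cloud.

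Setting the levels beside each other, as FPKM allows within a library, showed different orders in the genotypes. In both WT libraries Rbpj was the highest of the 9 genes, followed by Snw1, Ncor1, Hdac1, Kdm5a, Spen, L3mbtl3, Bend6 and Hes1 in that order. In both RBP-J KO libraries Snw1, Ncor1 and Hdac1 came first. Rbpj was at rank 6 in RBP-J KO replicate 1 and rank 4 in RBP-J KO replicate 2, among levels that were not separated by more than the spread of the libraries: Rbpj averaged 64.2 ± 18.1 FPKM, Kdm5a 58.4 ± 14.9 FPKM and Bend6 56.4 ± 5.23 FPKM (SD, n = 2 each). Spen, the next below, averaged 47.6 ± 0.73 FPKM (SD, n = 2), which overlaps the lower of the Kdm5a values.

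The ratio of partner to Rbpj RNA is given as a description, since the deleted gene is its denominator and the low Rbpj level sets its direction. Snw1 was 5.43 and 2.74 times the level of Rbpj in RBP-J KO replicates 1 and 2, against 0.629 and 0.350 times in WT replicates 1 and 2. For Ncor1 the ratios were 2.74 and 1.45 in RBP-J KO, against 0.401 and 0.191 in WT. L3mbtl3 was at 0.670 and 0.311 times Rbpj in RBP-J KO, against 0.0599 and 0.0196 times in WT. The 6 corepressor genes summed to 649 and 534 FPKM in RBP-J KO, against 586 and 502 FPKM in WT.

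**Figure D4:**
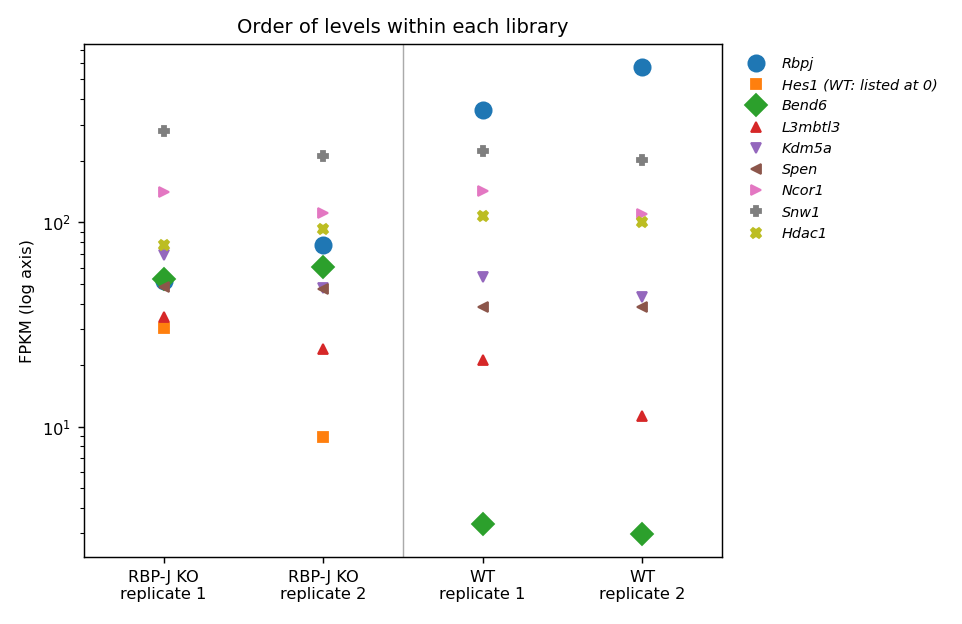
FPKM on a log axis for the 9 genes in each of the 4 libraries (RBP-J KO left of the grey line, WT right of it), 1 point per gene and library; Hes1 has no point in WT, where it is listed at 0. Rbpj is the highest gene in both WT libraries and lies in the middle of the corepressor genes in both RBP-J KO libraries, next to Bend6.

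Partners that were not members were taken from 7 lists of corepressor subunits, paralogs, target genes and the lysozyme locus (72 genes, 71 with an entry, 51 tested). With limma and Benjamini-Hochberg adjustment over all 11851 genes, 0 of the 51 passed an adjusted p of 0.05, as did 0% of all genes, where the smallest adjusted p was 0.294. At an unadjusted p under 0.05 there were 2 of the 51 and 524 of all genes. Inside both replicate numbers 8 of the 51 were higher and 11 lower in RBP-J KO, which is to be read beside 25.1% and 34.1% of all genes tested.

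The subunits of the NCoR and histone deacetylase complexes had small differences that varied in sign. All 12 listed subunits were tested, 3 were higher in both replicate numbers and 0 lower, and none differed by 1.5-fold in both. Sap30, a subunit of the SIN3 complex, was at 232 and 140 FPKM in RBP-J KO and 203 and 125 FPKM in WT. Tbl1x, an NCoR exchange factor, was at 162 and 105 FPKM in RBP-J KO and 146 and 101 FPKM in WT. For both genes the replicates differed more than the genotypes, and the adjusted p of each was 0.999 in limma.

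Of the other corepressors and chromatin partners (14 tested of 15 listed), 2 were higher and 3 lower inside both replicate numbers. Ikzf1, which encodes Ikaros, a repressor known to bind the Hes1 locus in mouse lymphoid and erythroid cells, was 1.34-fold higher in replicate 1 and 1.36-fold higher in replicate 2, at 265 and 172 FPKM in RBP-J KO against 197 and 126 FPKM in WT. Its log2 difference was 0.43 (SE 0.34; limma adjusted p = 0.999), and it was 0.11 without WT replicate 2, 0.12 without RBP-J KO replicate 1, 0.74 without RBP-J KO replicate 2 and 0.75 without WT replicate 1. Hdac4, a class II deacetylase, was at 20.9 and 20.4 FPKM in RBP-J KO and 25.5 and 22.4 FPKM in WT. Rcor1, the partner of KDM1A, was at 110.0 and 102 FPKM in RBP-J KO and 120.2 and 113 FPKM in WT.

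Of the 11 paralogs of RBP-J and its corepressors, 7 were tested, and 2 were higher and 0 lower inside both replicate numbers. Rbpjl, the pancreatic relative of RBP-J, was listed at 0 in all 4 libraries, as were L3mbtl1 and L3mbtl4. Mbtd1, an MBT domain gene like L3mbtl3, was at 43.7 and 35.7 FPKM in RBP-J KO and 28.9 and 30.4 FPKM in WT, and Kdm5c, an X-linked relative of Kdm5a, was at 108 and 126 FPKM in RBP-J KO and 98.7 and 119 FPKM in WT. Neither passed (limma adjusted p = 0.999 for each). The relatives of Bend6 (4 tested of 6) were lower inside both replicate numbers in 2 cases and higher in 0. Bend5 and Bend7 were listed at 0 in every library. Bend4 was lower in both replicate numbers, at 26.8 and 16.5 FPKM in RBP-J KO and 36.6 and 23.3 FPKM in WT, and Nacc2 was at 79.1 and 59.6 FPKM in RBP-J KO and 81.5 and 76.2 FPKM in WT. Neither of these passed (limma adjusted p = 0.999).

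Much of the HES family was at 0 in these cells. Of the 16 listed HES, HEY and related repressors and Groucho partners, 7 were listed at 0 in all libraries, among them Hes2, Hes3, Hes5, Hes7, Hey2 and Heyl. Hes6, an inhibitor of HES1, was the abundant member of the family, at 66.6 and 94.1 FPKM in RBP-J KO and 49.1 and 97.2 FPKM in WT. The Groucho gene Tle1, whose product is the corepressor that HES proteins recruit, was at 81.9 and 28.8 FPKM in RBP-J KO, against 21.9 and 5.44 FPKM in WT. Both RBP-J KO libraries exceeded both WT libraries, by 3.74-fold in replicate 1 and 5.29-fold in replicate 2. The log2 difference was 2.03 (SE 0.81, limma adjusted p = 0.999, or 0.0819 with the replicate number as a block). That difference was 1.12 without WT replicate 2, 1.29 without RBP-J KO replicate 1 and 2.95 without WT replicate 1. The summed neutrophil markers (1.20-fold and 3.54-fold) and dendritic cell markers (8.57-fold and 2.55-fold) were higher in RBP-J KO in the same replicates. Single neutrophil markers spread around their sum, and the dendritic cell sums of replicate 2 were low, as given for Bend6. The part of these cells in the level of Tle1 was not tested. Bhlhe41 (DEC2), a repressor related to HES, was lower, at 82.9 and 87.5 FPKM in RBP-J KO and 154 and 179 FPKM in WT. Its log2 difference was -0.95 (SE 0.19, limma adjusted p = 0.585, or 0.118 with the replicate number as a block). Tle3 was at 30.6 and 75.7 FPKM in RBP-J KO and 73.6 and 86.9 FPKM in WT (limma adjusted p = 0.999). Of 10 other Notch targets, 6 were listed at 0 in all libraries, including Nrarp and Dtx1, and the 3 that were tested had opposite signs in the 2 replicate numbers.

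The lysozyme genes were listed because the LysM cre allele lies in Lyz2, and the part of that allele in their levels was not tested. Lyz2, into which the LysM cre allele is inserted, was at 94.3 and 115 FPKM in RBP-J KO, against 218 and 192 FPKM in WT. Both RBP-J KO libraries were below both WT libraries (log2 difference -0.97, SE 0.20; limma adjusted p = 0.619). Its near-identical neighbour Lyz1 was at 356 and 21.6 FPKM in RBP-J KO and 649 and 151 FPKM in WT (limma adjusted p = 0.999). The assignment of reads between Lyz1 and Lyz2 is uncertain.

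**Figure D5:**
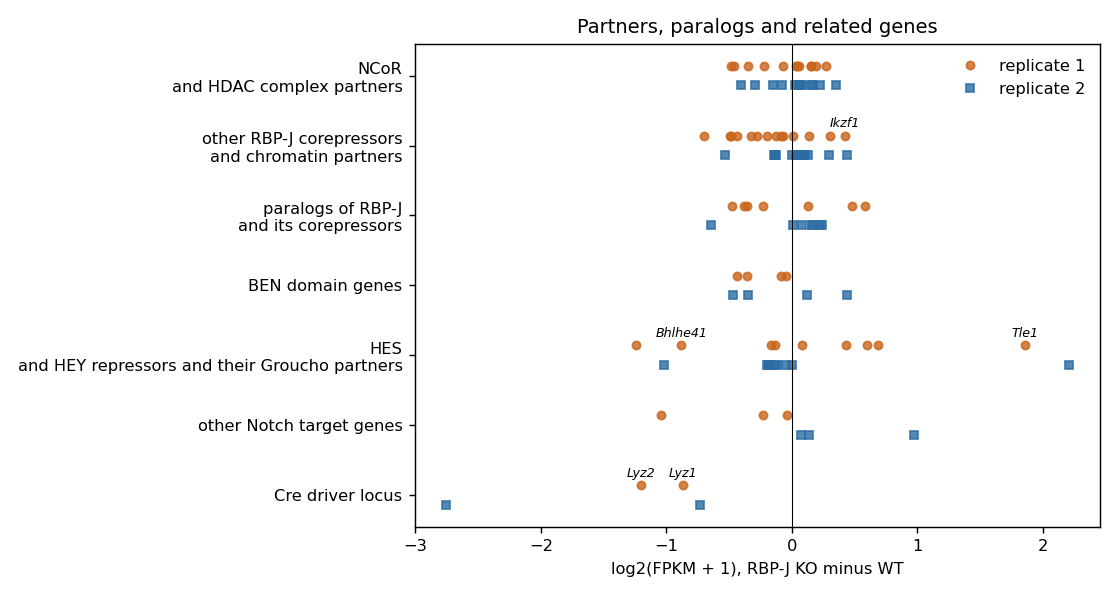
RBP-J KO minus WT difference in log2(FPKM + 1) (horizontal axis) of the 51 tested list genes, by list; circles are replicate 1 and squares replicate 2, 1 point per gene. The corepressor subunits lie around 0. Tle1 (to the right, higher in RBP-J KO) and Bhlhe41, Lyz2 and Lyz1 (to the left, lower) stand away from it in both replicates.

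Genes whose pattern over the 4 libraries was most like that of a member were named by the smallest Euclidean distance between log2(FPKM + 1) values centred on each gene. For Rbpj these were Nkain1 (distance 0.235), Epn2 (0.457) and Cacna1a (0.470). Nkain1, which encodes a protein that interacts with the sodium pump, was at 1.68 and 3.54 FPKM in RBP-J KO and 17.1 and 25.6 FPKM in WT. For Hes1 they were Pvrl3 (0.546), Ugt1a10 (0.916) and Emr4 (1.09). Pvrl3 encodes the adhesion molecule nectin-3 and was at 98.1 and 38.7 FPKM in RBP-J KO, against 1.8 and 3.52 FPKM in WT. Ugt1a10 shares exons with other genes of its locus, so that its value is uncertain. For Bend6 they were Emr4 (0.637), Gbp8 (0.726) and Cd244 (0.791), and Emr4, an adhesion receptor of macrophages, was at 40.3 and 27.5 FPKM in RBP-J KO, against 2.58 and 1.68 FPKM in WT. Values of Gbp8 are uncertain because guanylate-binding protein genes have close copies. These distances describe 4 libraries and carry no test.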

How the data were processed

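RNA was measured in 4 mouse macrophage libraries with the Illumina TruSeq protocol, per the labels' protocols. Alignment was with TopHat and quantification with Cufflinks on mm9, per the submitters' processing notes; versions and options not given in the sources used here were not assumed. The authors' deposited values were taken to be FPKM, the unit of Cufflinks, since the file headers name none. In replicate 2, FPKM times transcript length summed to 5.32 (RBP-J KO) and 5.61 (WT) times what the unit's definition gives (lengths for 97.0% of entries), so absolute levels are uncertain. No counts are given, so the depth is unknown and counting intervals cannot be given.

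Replicate 2 lists 27583 transcripts, summed here per symbol; 25 symbols turned into dates were restored by matching, and all 25 had the same description. limma 3.58.1 (R 4.3.3) was fitted to log2(FPKM + 1), a scale that understates differences of low genes, with group as the only term, a variance trend, a mean of at least 1 FPKM (11851 genes), and Benjamini-Hochberg adjustment (two-sided, threshold 0.05). Differences of at least 1.5-fold on this scale inside both replicate numbers were counted. Genes outside the members were named by the up to 3 smallest p per list with 1 sign in both replicate numbers, besides silent paralogs, Hes6 and Kdm5d, which were picked with their values in view. A gene that the rule names is not reported here. The members and lists were chosen with earlier results of these data known. Figures used Python 3.11.15 and matplotlib 3.10.9.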

Additional observations from a re-analysis of the deposited data

How the results depend on the processing

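With limma, 0 genes passed the adjusted threshold in each of the 13 alternatives (another pseudocount, 3 scalings, the highest transcript, 2 filters, each library left out, a replicate block, no variance trend), with 307 to 1557 genes at an unadjusted p under 0.05. The numbers are not stated to mark shared mice or days. Deviations from the genotype means nevertheless correlated across genes between equal numbers (r = 0.639), and with the replicate number as a block limma called 0 genes, with a smallest adjusted p of 0.0642 (0.0642 to 1 over the alternatives) and 1557 genes at an unadjusted p under 0.05. Among the list genes named by the rule, the limma adjusted p with that block lay between 0.0819 (Tle1) and 0.821 (Kdm5c). The counts at 1.5-fold stayed between 380 and 542 higher and between 332 and 506 lower genes, and need all 4 libraries. Leaving a library out sets unequal replicate numbers against each other, so such values also carry the difference between the replicates. The Rbpj difference in log2(FPKM + 1), -2.82 over all libraries, lay between -3.17 and -2.48 with each library left out. The Bend6 difference, 3.79, was 4.12 with a pseudocount of 0.1 FPKM and between 3.69 and 3.88 with a library left out. Hes1, listed at 0 in WT, had a value of 4.14 on this scale and 7.37 with 0.1 FPKM; it follows the pseudocount and is no measure of size. Of the 9 alternatives run on the members, all 9 kept the sign of Rbpj, Hes1, Bend6, L3mbtl3, Spen and Hdac1, while Kdm5a and Snw1 kept it in 8 and Ncor1 in 7. Unknown depth limits the reading of values near 0.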

Other observations

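Several members differed between the replicate numbers in the same way in both genotypes. The replicate 2 level of Rbpj was 1.497 times that of replicate 1 in RBP-J KO and 1.62 times in WT. L3mbtl3 stood at 0.694 times its replicate 1 level in RBP-J KO and 0.528 times in WT, and Ncor1 at 0.790 and 0.769 times. Spen differed least, at 0.979 times in RBP-J KO and 0.998 times in WT. Replicate 1 values come from a gene layout and replicate 2 values from a transcript layout, and no test was made of this difference.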
